A study of Mus musculus with 12 samples.

Results

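The interleukin and interleukin receptor genes of a NanoString innate immune panel were followed across allergen-treated mouse lungs. Members were all endogenous probes whose symbol starts with Il and a digit, except Il4, Il13, Il33, Il4ra, Il5ra and Il1rl1, which left 29 of the panel's 734 endogenous genes. Of these, 8 belonged to the IL-1 family, 7 to the IL-6/IL-12 family, 5 to the family that signals through the common gamma chain, 5 to the IL-10 and IL-17 families and 4 to none of them. Those 4 were Il3, Il3ra, Il5 and Il4i1. Il4i1 was taken in by its symbol alone, since it encodes an amino acid oxidase induced by IL-4 and no interleukin, and Il5, a type 2 cytokine gene, also fell under the rule.

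Whole lung RNA came from the post-caudal lobe of littermate mice dosed intranasally with PBS or with DRA allergens, 2 times in each of 8 weeks. The groups were B6_PBS (wild type, PBS, n = 2), B6_DRA (wild type, DRA, n = 5) and KO_DRA (altered Chil4, DRA, n = 5). The labels do not expand DRA, call the altered mice both KD and KO, and give neither the age of the mice nor the way Chil4 was altered. Mice with altered Chil4 that received PBS were not analysed here, so a genotype difference under allergen cannot be told apart from one present without it. NanoString assays count single barcoded probe and RNA complexes, with no amplification step. Libraries held 320290 to 673201 counts over endogenous and housekeeping probes.

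The library labelled KO_DRA 8 stood apart from the rest of its group in Chil4. Since the way Chil4 was altered is not given, a Chil4 count does not settle the genotype of a library. Chil4, the targeted gene, gave 111850 counts there, the highest of the 12 libraries, against 5676 to 24313 in KO_DRA 9 to 12. B6_DRA libraries held 13020 to 89957 and the B6_PBS pair 4406 and 5121. Counts of calls and fold changes of named members that rest on KO_DRA are therefore also given without that library. Epithelial and endothelial markers were present, since Cdh1 of epithelium and the endothelial genes Cdh5, Tek, Flt1 and Thbd were above background in all 12 libraries. Cdh1 was the only listed epithelial marker on the panel, so these genes do not single out lung.

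Interleukins are secreted signals between immune and tissue cells, and each acts through a receptor built from subunits that several cytokines often share. In the IL-1 family the agonists IL-1α and IL-1β are held in check by a receptor antagonist, the product of Il1rn, and by a decoy receptor, the product of Il1r2. IL-6 and IL-12 family members signal through the gp130 and IL-12 receptor chains, and IL-2, IL-7, IL-9, IL-15 and IL-21 through the common gamma chain. In allergic lung the IL-33, IL-4, IL-5 and IL-13 axis is the best known, and the genes described here mostly lie beside it.

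Background was set in each library at the mean plus 2 SD of its 8 negative control probes, which came to 5.58 to 11.7 counts. Of the 29 members, 16 exceeded it in all 12 libraries, 7 in some and 6 in none. All 10 receptor chains stood above background in every library. The decoy receptor gene Il1r2, counted with the antagonists and not among these 10, did so in 11. The 6 members never above background were all cytokines: Il2, Il5, Il10, Il22, Il25 and Il27, with counts of 1 to 10, 1 to 11, 1 to 5, 1 to 5, 1 to 6 and 1 to 4. IL-10 is a cytokine that dampens inflammation, IL-22 acts on epithelium and IL-25 is an epithelial inducer of type 2 responses. Their transcripts were not detectable at this depth in any group, which does not show that they were absent.

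Another 3 cytokine genes crossed background in isolated libraries. Il23a, a subunit of IL-23, did so in B6_DRA 6 alone at 10 counts, Il9 in KO_DRA 9 alone at 8 counts, and Il3 in KO_DRA 9 and KO_DRA 11 at 7 and 9 counts. By family, 7 of 8 IL-1 members were above background in all libraries, 3 of 7 IL-6/IL-12 members, 3 of 5 gamma-chain members and 2 of 5 IL-10/IL-17 members. Between these extremes, Il6 was above it in 10 libraries, Il12a in 9, and Il1r2 and Il4i1 in 11 each. Counts of different probes were not set against each other, because probes differ in how well they bind.

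**Figure D1:**
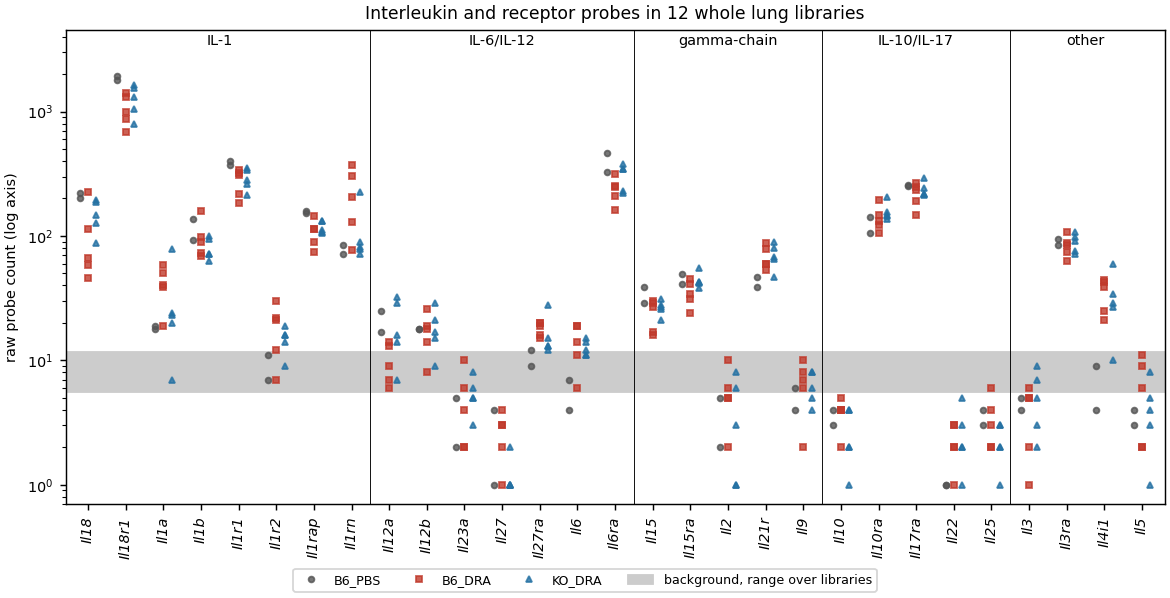
Raw probe counts (log axis) of the 29 members, by family, in 2 B6_PBS, 5 B6_DRA and 5 KO_DRA libraries; each point is a library and the grey band spans the background of the 12 libraries, 5.58 to 11.7 counts. All 10 receptor chains, which do not include the decoy Il1r2, lie above the band or their own library's background. Il2, Il5, Il10, Il22, Il25 and Il27 do not.

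The sequences just upstream of 4 members that carry the results below are shown, 2 that were higher with allergen (Il6 and Il1r2), 1 that was lower (Il18r1) and Il1rn, whose level set the library labelled KO_DRA 8 apart. Each is the 250 bases before a RefSeq start site on GRCm38.p6, 5′ to 3′ on the plus strand, on which all 4 genes lie. Capitals mark every match, on either strand, to TTC and GAA set 4 bases apart (the STAT6-type motif), TTCNNNGAA (the STAT-type motif), TGANTCA (AP-1) or GGG and TTCC set 3 bases apart (the NF-kB motif). Where a gene had several start sites, 3 for Il1rn and 3 for Il18r1, the window with the most matches is shown.
Il6 (chr5:30012864-30013113): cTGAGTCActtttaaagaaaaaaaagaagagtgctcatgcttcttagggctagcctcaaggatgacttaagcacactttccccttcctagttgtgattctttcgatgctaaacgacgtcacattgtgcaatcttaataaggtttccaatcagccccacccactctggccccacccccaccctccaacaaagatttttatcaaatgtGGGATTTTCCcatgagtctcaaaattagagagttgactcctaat
Il1r2 (chr1:40085843-40086092): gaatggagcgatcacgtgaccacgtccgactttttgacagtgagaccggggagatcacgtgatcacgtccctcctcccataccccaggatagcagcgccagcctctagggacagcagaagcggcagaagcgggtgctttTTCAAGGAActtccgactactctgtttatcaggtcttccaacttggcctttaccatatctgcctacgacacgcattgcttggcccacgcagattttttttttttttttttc
Il1rn (chr2:24345121-24345370): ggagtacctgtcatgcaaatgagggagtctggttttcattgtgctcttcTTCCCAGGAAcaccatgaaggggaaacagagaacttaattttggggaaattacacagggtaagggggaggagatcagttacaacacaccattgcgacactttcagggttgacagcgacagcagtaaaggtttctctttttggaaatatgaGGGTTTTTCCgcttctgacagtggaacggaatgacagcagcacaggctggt
Il18r1 (chr1:40465756-40466005): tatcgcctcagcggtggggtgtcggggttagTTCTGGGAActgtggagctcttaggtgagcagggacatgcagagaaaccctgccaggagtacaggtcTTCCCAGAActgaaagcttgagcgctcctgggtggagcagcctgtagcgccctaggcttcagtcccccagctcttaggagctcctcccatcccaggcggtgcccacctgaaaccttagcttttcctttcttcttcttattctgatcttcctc

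The Il6 window held AP-1 letters at position -249 from the start site and NF-kB letters at -44. The Il1rn window held STAT6-type letters at -201 and NF-kB letters at -51, the Il1r2 window STAT letters at -111, and the Il18r1 window STAT letters at -219 and -152. No 2 of these matches overlapped. Of 32851 windows of this length over all genes, 5.85% held the STAT6-type motif, 7.02% the STAT-type, 6.75% AP-1 and 4.65% NF-kB. RefSeq windows were found for 21 of the 29 members, 28 windows in all, and 8, 2, 5 and 4 of these windows held the 4 motifs in that order. Windows of start sites of 1 gene can overlap, and the 8 belong to 5 genes. The matches fell before genes that were higher and before a gene that was lower, and a match is a run of letters and not a shown binding site.

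The first comparison set allergen-treated against PBS-treated wild type lungs, with edgeR's quasi-likelihood test on raw counts over 665 genes and Benjamini-Hochberg adjustment. Of the 29 members, 20 passed the filter on low counts and were tested. Between B6_DRA and B6_PBS, 8 of the 20 passed an adjusted p of 0.05 (40%), against 41.8% of all genes tested. At an unadjusted p under 0.05 there were 11 (55%), against 53.4%. Higher were Il4i1, Il6, Il1r2, Il27ra and Il21r, 5 of 20 against 24.1% of all genes, and lower were Il18r1, Il6ra and Il1rap, 3 of 20 against 17.7%. The members' shares were close to those of the panel, with a median log2 fold change of 0.09 beside 0.01 over all genes. In whole lung RNA, more cells of a type and more RNA per cell cannot be told apart. Values below are the authors' scaled counts, which are raw counts multiplied by 1 factor per library, and fold changes are edgeR's.

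Within the IL-1 family 3 of 8 tested members passed, Il1r2 as higher and Il18r1 and Il1rap as lower, with a family median log2 fold change of -0.10. Il1r2, the decoy receptor that binds IL-1 without signalling, stood at 9.49 and 5.77 in B6_PBS and at 20.7, 26.4, 7.45, 25.9 and 16.8 in B6_DRA 3 to 7. B6_DRA 5, at 7 raw counts and below its own background of 7.14, lay within the B6_PBS range and the other 4 above it. The log2 fold change was 1.25 (SE 0.434, edgeR adjusted p = 0.0394), a 2.37-fold rise. Il1rn, the receptor antagonist, stood at 62.1 and 70.0 in B6_PBS and at 348, 113, 82.0, 372 and 290 in B6_DRA. All 5 B6_DRA libraries were higher than both B6_PBS libraries, 3 of them far above the other 2. Its mean was 66.0 ± 5.59 (SD, n = 2) and 241 ± 135 (SD, n = 5), and with a log2 fold change of 1.77 (SE 0.674, edgeR adjusted p = 0.053) it did not pass.

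Of the agonists, Il1a, the gene of IL-1α, showed a similar layout. It stood at 16.4 and 14.8 in B6_PBS and at 47.1, 50.9, 20.2, 48.1 and 56.1 in B6_DRA, without overlap, at a log2 fold change of 1.41 (SE 0.741, edgeR adjusted p = 0.136). Il1b, the gene of IL-1β, overlapped, with 79.3 and 114 in B6_PBS and 65.0, 140, 77.7, 110 and 137 in B6_DRA (log2 fold change 0.03, SE 0.309). Il1r1, the signalling receptor, had a log2 fold change of -0.23 (SE 0.137, edgeR adjusted p = 0.175).

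Il18r1, the ligand-binding chain of the IL-18 receptor, fell by 0.59 on the log2 scale (SE 0.201, edgeR adjusted p = 0.0378). It went from 1554 and 1596 in B6_PBS to 939, 1246, 1383, 1078 and 953 in B6_DRA, all 5 below both B6_PBS libraries. Il1rap, the accessory chain that the IL-1 and IL-33 receptors share, fell by 0.31 (SE 0.111, edgeR adjusted p = 0.043), from 137 and 127 to between 104 and 126. The highest B6_DRA library lay just under the lower B6_PBS library. Il18 itself, the cytokine that caspase-1 matures, stood at 172 and 182 in B6_PBS and at 62.2, 198, 120, 71.5 and 64.5 in B6_DRA. B6_DRA 4 exceeded both B6_PBS libraries while the other 4 lay below them, and the log2 fold change of -0.87 (SE 0.382, edgeR adjusted p = 0.081) did not pass.

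Several of these genes neighbour each other on the chromosome. Among protein-coding genes of chromosome 1, Il1r2 and Il1r1 are adjacent, followed by Il1rl2, which is not among the members, then Il1rl1 and Il18r1. Their log2 fold changes in that order were 1.25, -0.23, 1.86 for Il1rl1 (the excluded IL-33 receptor gene) and -0.59, so adjacent genes differed in sign. Il1a and Il1b, adjacent on chromosome 2, had 1.41 and 0.03.

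In the IL-6/IL-12 family the cytokine gene Il6 and the receptor gene Il27ra were higher and Il6ra lower. IL-6 is an inducer of acute phase and T helper responses, and its gene stood at 6.04 and 3.29 in B6_PBS and at 17.9, 16.7, 6.39, 17.3 and 15.4 in B6_DRA. B6_DRA 5, at 6 raw counts, was below its own background of 7.14 and near the higher B6_PBS library. The other 4 were well apart. The log2 fold change was 1.55 (SE 0.393, edgeR adjusted p = 0.0188), a 2.92-fold rise from raw counts of 7 and 4, close to background. The 4 counts, in B6_PBS 2, were below its background of 6.57. Il27ra, the specific chain of the IL-27 receptor, stood at 10.3 and 7.41 in B6_PBS and at 18.8, 17.6, 20.2, 18.5 and 22.4 in B6_DRA, with no overlap. It rose 2.04-fold (log2 fold change 1.03, SE 0.315, edgeR adjusted p = 0.0301), while its ligand gene Il27 lay at 1 to 4 counts in all libraries.

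Il6ra, the chain that binds IL-6 before gp130 joins, went from 401 and 268 in B6_PBS to 235, 278, 269, 259 and 226 in B6_DRA. The groups overlapped, because B6_PBS 2 lay inside the B6_DRA range. It fell by 0.49 on the log2 scale (SE 0.176, edgeR adjusted p = 0.0433), but the value was -0.21 without B6_PBS 1 and -0.77 without B6_PBS 2. Il12a, the p35 subunit of IL-12, stood at 14.7 and 20.6 in B6_PBS and at 12.3, 12.3, 9.58, 8.63 and 8.41 in B6_DRA. These did not overlap, but B6_DRA 5, 6 and 7 were at 6 to 9 raw counts, with B6_DRA 6 and 7 below background. The log2 fold change of -0.86 (SE 0.403) did not pass. Il12b, the p40 subunit shared with IL-23, ranged from 14.8 to 15.5 in B6_PBS and from 11.2 to 22.8 in B6_DRA (log2 fold change 0.14, SE 0.358).

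Of the gamma-chain family, Il21r, a receptor of lymphocytes, stood at 40.5 and 32.1 in B6_PBS and at 74.4, 76.4, 63.9, 72.8 and 74.3 in B6_DRA. The 5 B6_DRA libraries were tightly grouped and all above B6_PBS, at 72.4 ± 4.93 (SD, n = 5) against 36.3 ± 5.95 (SD, n = 2). It rose 1.87-fold (log2 fold change 0.90, SE 0.248, edgeR adjusted p = 0.0228). Il15 and Il15ra, the cytokine and the chain that presents it to neighbouring cells, overlapped between groups, at 21.0 to 32.1 and 33.7 to 42.4 over the 7 wild type libraries, with log2 fold changes of -0.27 (SE 0.198) and -0.12 (SE 0.171).

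The measured IL-10 and IL-17 receptors and Il3ra did not pass. Il10ra, the ligand-binding chain for IL-10, stood at 123 and 87.3 in B6_PBS and at 138, 170, 131, 163 and 147 in B6_DRA, without overlap, with a log2 fold change of 0.41 (SE 0.172, edgeR adjusted p = 0.0699). With library size as the only scaling, where the median of all genes moved to -0.63, Il10ra turned to -0.23, and Il1b, Il12b, Il17ra and Il3ra also turned below 0, at -0.63, -0.49, -0.60 and -0.49. Il17ra, which transmits IL-17 signals, was 207 to 223 in B6_PBS and 206 to 262 in B6_DRA (log2 fold change 0.02, SE 0.116). Il3ra, the IL-3 receptor chain, was 73.3 to 78.2 and 82.9 to 94.9 (log2 fold change 0.15, SE 0.141).

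Il4i1, the enzyme gene, had the highest log2 fold change of the tested members. It stood at 7.76 and 3.29 in B6_PBS and at 36.8, 37.8, 26.6, 25.9 and 61.7 in B6_DRA, all 5 above. The rise was 6.32-fold (log2 fold change 2.66, SE 0.712, edgeR adjusted p = 0.0209), and the log2 value was 3.34 without B6_PBS 1 and 2.16 without B6_PBS 2. It started from raw counts of 9 and 4 in B6_PBS. The 4 counts, in B6_PBS 2, were below its background of 6.57, so the size of the rise is uncertain. On the scaled counts, 8 of 20 tested members lay entirely above and 3 entirely below B6_PBS, against 34.7% and 21.5% of all genes.

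**Figure D2:**
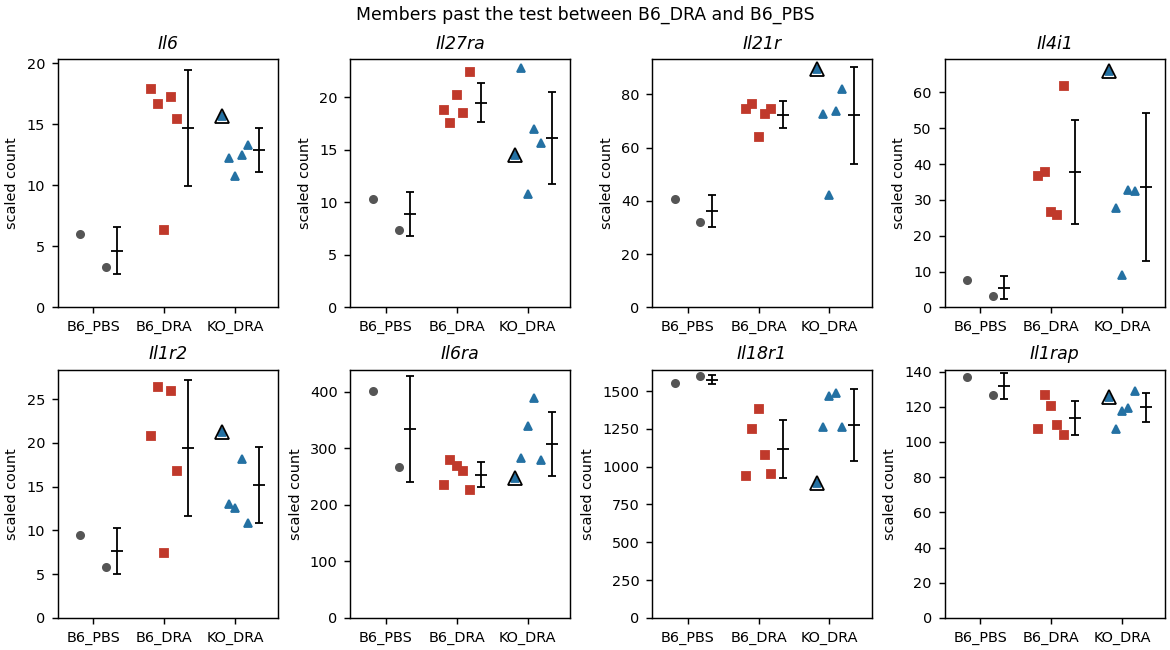
The authors' scaled counts of the 8 members past the test between B6_DRA and B6_PBS; points are libraries, bars the mean ± SD of a group (n = 2, 5 and 5), and the outlined triangle is the library labelled KO_DRA 8. Il27ra, Il21r and Il4i1 lie above B6_PBS in all 5 B6_DRA libraries, while B6_DRA 5 lies at 6.39 for Il6 and 7.45 for Il1r2, near the B6_PBS level, and Il6ra overlaps.

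Calls in both directions depended on the scaling. Housekeeping scaling gave 6 higher and 0 lower members, and the authors' scaled values tested with limma gave 5 and 0. Library size alone gave 1 higher and 7 lower. There Il21r, Il27ra, Il1r2 and Il6 lost their calls (edgeR adjusted p = 0.532, 0.480, 0.245 and 0.0914). Il4i1, Il18r1, Il6ra and Il1rap kept theirs. Over all genes the split of 160 higher and 118 lower became 163 and 72, 169 and 61, and 57 and 222 under these settings. Il21r, Il4i1 and Il6 stayed past the threshold without any 1 B6_DRA or KO_DRA library. Il27ra lost its call without B6_DRA 3 or 7, and Il1r2, Il18r1, Il1rap and Il6ra without any of B6_DRA 3, 4, 6 and 7. KO_DRA 11 also ended the call of Il1r2 and Il1rap when left out, KO_DRA 12 that of Il18r1 and Il6ra, and KO_DRA 9 that of Il1rap and Il6ra. The calls of this comparison were lost without either B6_PBS library, which leaves a group of 1 library. The members' median log2 fold change was then 0.05 without B6_PBS 1 and 0.13 without B6_PBS 2, beside -0.02 and 0.03 over all genes.

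Markers of some cell types that could carry these genes moved in the same libraries, and those of others did not pass. Over all genes tested between B6_DRA and B6_PBS, 24.1% were called higher and 17.7% lower. None of 3 NK cell markers passed (median log2 fold change -0.33), nor the 1 B cell marker, nor any of 5 tested mast cell and basophil markers. Of 5 alveolar macrophage markers 1 rose, Chil3, and of 4 fibroblast markers 1 fell, Pdgfra. Of 12 monocyte and macrophage markers 9 rose, and their summed scaled counts (B6_PBS, B6_DRA, KO_DRA) were 2777 to 2784, 4929 to 8950 and 3565 to 9415. Of 6 T cell markers 3 rose, with sums, in the same order, of 115 to 132, 214 to 323 and 191 to 331. Of 6 tested neutrophil markers none passed, with sums of 1468 to 2478, 689 to 4291 and 1722 to 2956, and Elane was never above background. Of 7 dendritic cell markers 4 rose, with sums of 355 to 430, 544 to 957 and 437 to 1083, and of 5 tested eosinophil markers 4 rose, while Epx was never above background. All 4 endothelial markers and the 1 epithelial marker, Cdh1, fell, with endothelial sums of 6767 to 8334, 3127 to 5616 and 3382 to 7105. Their part in the changes of Il21r, Il4i1, Il1r2, Il6ra, Il18r1 and Il1rap was not tested.

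Signalling partners of the 4 families were listed as well. Of 6 IL-1 pathway partners, Casp1, the protease that matures IL-1β and IL-18, rose (log2 fold change 0.63, SE 0.226, edgeR adjusted p = 0.043) and the adaptor gene Traf6 fell by 0.45 (SE 0.147, adjusted p = 0.0338), and the median was 0.01. None of 8 tested IL-6 and IL-12 partners passed (median 0.05), among them Stat3, Socs1 and Socs3, and none of 4 gamma-chain partners (median 0.13), namely Jak3, Stat5a, Stat5b and Bcl2. Of 7 genes listed with IL-10 and IL-17, 5 rose, with a median of 2.19. They are the chemokine genes Cxcl1, Cxcl3, Cxcl5 and Ccl20 and the growth factor gene Csf2, known as targets of IL-17 but also of other signals. The median over all genes was 0.01, with 24.1% called higher and 17.7% lower.

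**Figure D3:**
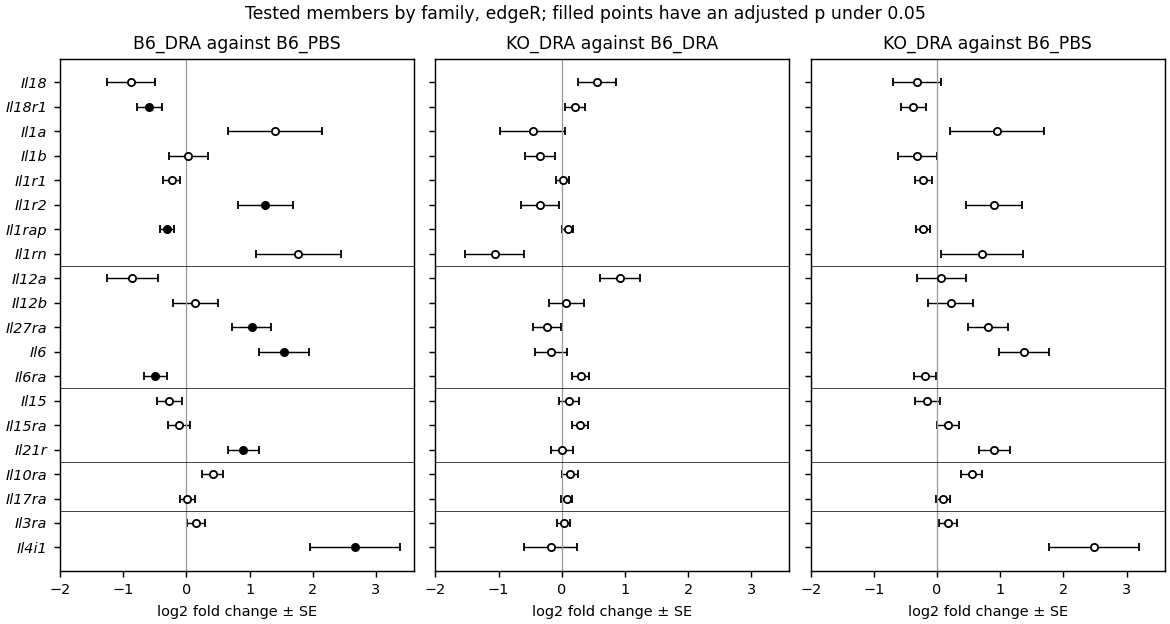
Log2 fold changes with SE of the 20 tested members in the 3 comparisons, by family from IL-1 at the top through IL-6/IL-12, gamma-chain and IL-10/IL-17 to Il3ra and Il4i1; filled points have an adjusted p under 0.05 by edgeR. The 8 filled points all lie in the comparison of B6_DRA with B6_PBS, from -0.59 for Il18r1 to 2.66 for Il4i1.

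The second comparison asked whether altered Chil4 changed these genes under allergen. No member passed between KO_DRA and B6_DRA by edgeR, and 0% of the 665 genes did. At an unadjusted p under 0.05 there were 3 members by edgeR, 2 by DESeq2 and 1 by limma, against 12.6%, 14.6% and 13.2% of all genes, and by edgeR 5 without the library labelled KO_DRA 8, against 36.7%. DESeq2 and limma also called 0 members. The median log2 fold change was 0.05 over the members and 0.01 over all genes. These estimates share the B6_DRA libraries with the first comparison, so the 2 sets of values are given side by side and not correlated.

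The smallest p belonged to Il12a, the p35 gene. It stood at 7.84 in the library labelled KO_DRA 8 and at 26.1, 26.0, 15.9 and 19.3 in KO_DRA 9 to 12, beside 8.41 to 12.3 in B6_DRA. The 4 other KO_DRA libraries lay above every B6_DRA library. The library labelled KO_DRA 8, B6_DRA 6 and B6_DRA 7 were at 7, 7 and 6 raw counts, below their own backgrounds of 8.96, 8.40 and 6.98. These have no order among them, and the fold changes rest in part on them. The log2 fold change was 0.92 (SE 0.32, edgeR adjusted p = 0.321). Without the library labelled KO_DRA 8 it was 1.13 (edgeR adjusted p = 0.0344). Over all other settings and left-out libraries the adjusted p of Il12a ran from 0.164 to 0.628.

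Il1rn stood at 254 in the library labelled KO_DRA 8 and at 66.0, 70.9, 102 and 86.9 in KO_DRA 9 to 12, beside 82.0 to 372 in B6_DRA. The library labelled KO_DRA 8 lay between the 3 high B6_DRA libraries and B6_DRA 4, and the 4 others all below B6_DRA 4. The log2 fold change was -1.06 (SE 0.464, edgeR adjusted p = 0.35). Without that library it was -1.53 (edgeR adjusted p = 0.0403), with KO_DRA at 81.5 ± 16.4 (SD, n = 4). Over all other settings and left-out libraries the adjusted p of Il1rn ran from 0.146 to 0.699.

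Il6ra stood at 247 in the library labelled KO_DRA 8 and at 284, 340, 389 and 279 in KO_DRA 9 to 12, beside 226 to 278 in B6_DRA. The 4 others lay above every B6_DRA library, 2 of them by little. Its log2 fold change was 0.30 (SE 0.137, edgeR adjusted p = 0.378) with that library and 0.38 (adjusted p = 0.0499) without it. The adjusted p of Il6ra ran from 0.191 to 0.702 over the other settings and left-out libraries. Il15ra stood at 48.1 in the library labelled KO_DRA 8 and at 34.2, 49.3, 48.8 and 45.9 in KO_DRA 9 to 12, beside 33.7 to 42.4 in B6_DRA, with a log2 fold change of 0.29 (SE 0.131, edgeR adjusted p = 0.378). Il18 stood at 141 and at 153, 173, 99.9 and 178, inside the B6_DRA range of 62.2 to 198, with 0.56 (SE 0.303, edgeR adjusted p = 0.403). Neither passed without the library labelled KO_DRA 8, at 0.29 for Il15ra and 0.59 for Il18.

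Without that library 4 of 20 members passed by edgeR (20%), 2 higher and 2 lower, against 18.1% of 664 genes, 4.52% higher and 13.6% lower. They were Il12a, Il6ra, Il1rn and Il1a, and Il1a is described after its values were seen. It stood at 87.3 in the library labelled KO_DRA 8, the highest of all 12, and at 18.7, 6.28, 22.7 and 29.0 in KO_DRA 9 to 12, beside 20.2 to 56.1 in B6_DRA. The log2 fold change was -0.46 (SE 0.511, edgeR adjusted p = 0.61) with that library and -1.19 (adjusted p = 0.0499) without it. The adjusted p of Il1a ran from 0.405 to 0.872 over the other settings and left-out libraries. That library was singled out after its Chil4 count and these values were known. No tested member lay entirely above or below B6_DRA with all 5 KO_DRA libraries, against 0.602% of genes in each direction, and 2 lay above it without that library, Il12a and Il6ra, against 3.01%, and 0 below it, against 3.16%. In the library labelled KO_DRA 8 the summed monocyte and macrophage markers were 9415, against 3565 to 5507 in KO_DRA 9 to 12, and their part in the values of Il1rn and Il1a was not tested. With all libraries 0 of 665 genes passed between KO_DRA and B6_DRA, so the marker and partner lists could hold no called gene.

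For the members that rose with allergen in wild type lung, no difference between the allergen groups passed the test. Il6 was 14.7 ± 4.76 in B6_DRA and 12.9 ± 1.81 in KO_DRA (SD, n = 5 each), or 12.2 ± 1.05 (SD, n = 4) without the library labelled KO_DRA 8, with a log2 fold change of -0.18 (SE 0.255) that became -0.23. Il21r was 72.4 ± 4.93 and 72.0 ± 18.1 (log2 fold change 0.01, SE 0.176), where KO_DRA 10 stood at 42.2 and the other 4 at 72.5 to 89.6, and without the library labelled KO_DRA 8 the mean was 67.6 ± 17.5 (SD, n = 4) and the log2 value -0.06. Il4i1 was 37.7 ± 14.5 and 33.7 ± 20.6 (log2 fold change -0.17, SE 0.419), again with KO_DRA 10 lowest, at 8.97, and without the library labelled KO_DRA 8 the mean was 25.6 ± 11.3 (SD, n = 4) and the log2 value -0.53. Il27ra and Il1r2 had -0.23 (SE 0.221) and -0.35 (SE 0.299), or -0.17 and -0.47 without the library labelled KO_DRA 8. These values miss the threshold, which does not show that the genotypes were alike.

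**Figure D4:**
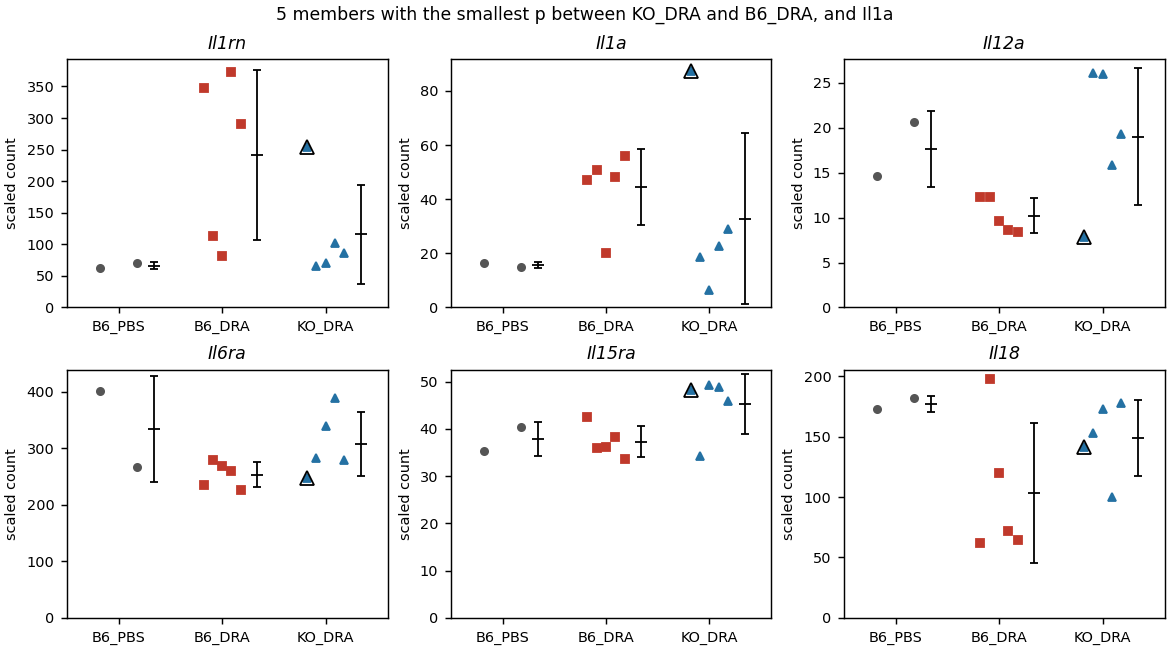
The authors' scaled counts of the 5 members with the smallest p between KO_DRA and B6_DRA, and of Il1a, in all 12 libraries; bars are the mean ± SD (n = 2, 5 and 5) and the outlined triangle is the library labelled KO_DRA 8. That library stands at 254 for Il1rn, 87.3 for Il1a and 7.84 for Il12a, at the far side of the KO_DRA group from the other 4 libraries. The Il12a value is below that library's background.

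The third comparison set KO_DRA against B6_PBS, in which genotype and allergen differ together. No member passed by edgeR, against 3.01% of 665 genes, and 5 had an unadjusted p under 0.05 (25%), against 28.6%. Without the library labelled KO_DRA 8 the latter count was again 5, against 21.7%. DESeq2 called 2 (10%), Il21r and Il4i1, against 8.42% of all genes, and limma called 0, against 4.06%. The 5 with the smallest p all had positive estimates, and 4 of them are the genes Il21r, Il4i1, Il6 and Il27ra that rose in wild type lung, where the B6_PBS libraries are shared. Their log2 fold changes were 0.91 (SE 0.248), 2.49 (SE 0.712), 1.37 (SE 0.395) and 0.80 (SE 0.316), with adjusted p of 0.0954, 0.0999, 0.0999 and 0.149 by edgeR, and without the library labelled KO_DRA 8 they were 0.84, 2.12, 1.31 and 0.86. Without it no member passed, against 1.36% of genes.

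Il10ra, the other of the 5, stood at 161, 168, 133, 157 and 187 in KO_DRA 8 to 12 against 123 and 87.3 in B6_PBS, all 5 higher. Its log2 fold change was 0.54 (SE 0.172, edgeR adjusted p = 0.12), and 0.56 without the library labelled KO_DRA 8. Il6 stood at 15.7, 12.2, 10.8, 12.5 and 13.3 in KO_DRA 8 to 12 against 6.04 and 3.29, again without overlap. Entirely above B6_PBS lay 6 of 20 members, against 26.9% of genes, and entirely below lay Il18r1 alone, against 8.57%. Without the library labelled KO_DRA 8 the same 6 and Il18r1 did so, against 27.2% and 9.32%. Without KO_DRA 10, 4 of 20 members passed (20%), Il10ra, Il21r, Il4i1 and Il6, against 11.9% of all genes.

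The balance of antagonist or decoy against its partner was also taken within each library, where library scaling cancels, as the log2 ratio of counts plus 1. Il1rn over Il1b was -0.35 and -0.69 in B6_PBS, 2.40, -0.30, 0.08, 1.75 and 1.07 in B6_DRA, and 1.17, 0.19, -0.25, 0.51 and 0 in KO_DRA 8 to 12. All 10 allergen libraries were above both B6_PBS libraries, some of them by little. The means differed by 1.52 between B6_DRA and B6_PBS (exact two-sided permutation p = 0.0952, the smallest that 5 against 2 allows; adjusted 0.19 over 6 tests). KO_DRA differed from B6_PBS by 0.85 with the same p, while the difference from B6_DRA was -0.68 (p = 0.278 in the exact two-sided permutation, against a lowest attainable 0.00794). These 2 differences were 0.63 and -0.89 without the library labelled KO_DRA 8.

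Il1r2 over Il1r1 was -5.06 and -5.54 in B6_PBS, -3.81, -3.33, -5.41, -3.32 and -3.83 in B6_DRA, and -3.83, -4.33, -4.55, -3.95 and -4.42 in KO_DRA. All 5 KO_DRA libraries and 4 of 5 B6_DRA libraries lay above B6_PBS, and B6_DRA 5 lay between the B6_PBS libraries. The Il1r2 count of B6_DRA 5, at 7, was below that library's background of 7.14. The differences from B6_PBS were 1.35 for B6_DRA (exact two-sided permutation p = 0.19) and 1.08 for KO_DRA (p = 0.0952 by the same exact permutation test), and KO_DRA differed from B6_DRA by -0.28 (exact permutation p = 0.484). Without the library labelled KO_DRA 8 the KO_DRA differences were 0.98 from B6_PBS and -0.37 from B6_DRA. No ratio passed after adjustment, and against B6_PBS none could.

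**Figure D5:**
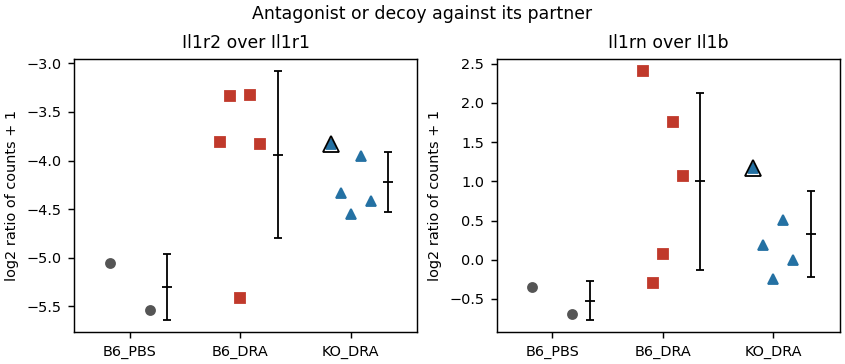
Log2 ratio of counts plus 1 for Il1r2 over Il1r1 and Il1rn over Il1b in each library; bars are the mean ± SD (n = 2, 5 and 5) and the outlined triangle is the library labelled KO_DRA 8. For Il1rn over Il1b the B6_PBS libraries are lowest, at -0.35 and -0.69, and the B6_DRA libraries spread from -0.30 to 2.40.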

How the data were processed

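Whole lung RNA of 12 mice was measured on a NanoString panel. The authors deposited raw counts per probe for 734 endogenous, 20 housekeeping, 8 negative and 6 positive control probes, with a lowest count of 1, and a second table with a scaled signal, in which each library has 1 factor on its raw counts. The series' value table holds the same deposited signal. Housekeeping probes were recognised from the table's alphabet, which starts again after the endogenous probes. R 4.2.0, edgeR and limma appear in the submitters' processing notes, with no role stated. How the factors and any background step were set is not given in the sources used here.

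For the tests, raw endogenous and housekeeping counts went into edgeR 4.0.16 (R 4.3.3) with filterByExpr (minimum count 10, minimum total 15), TMM scaling and a quasi-likelihood fit of the 3 groups over all 12 libraries (9 residual degrees of freedom), two-sided, with Benjamini-Hochberg adjustment over 665 endogenous genes at 0.05. Each SE was derived from the fold change and its F statistic. Of the members 20 were tested; Il2, Il3, Il5, Il9, Il10, Il22, Il23a, Il25 and Il27 did not pass the filter. Alternatives used DESeq2 1.42.0 and limma 3.58.1, the latter on log2 of the scaled signal plus 1. Ratios used exact permutation tests in scipy 1.17.1; a planned ratio of Il13ra2 over Il13ra1 was not analysed here, which left 6 tests. The edgeR procedure was tested on simulated data.

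Members and lists were chosen with earlier results of these data known. Members were described where they passed, or were among the 5 with the smallest p in a comparison without calls. Most were given library by library, and some only by a range, a mean or fold changes. Listed partners past the test between B6_DRA and B6_PBS were named. Of the markers past it, Chil3, Pdgfra, Cdh1 and the endothelial genes were named, and the others only counted. All 29 members matched a RefSeq symbol of GRCm38.p6, whose table served for names and neighbours, and RefSeq promoter windows were used for 21. Samples are labelled as mice, and no p-value here covers more than the spread among them. Il1rn and Il10ra in the allergen comparison and Il1a in the genotype comparison were added after their values were seen.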

Additional observations from a re-analysis of the deposited data

Results flagged for a closer look

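Within-group gaps were tested by Dixon's ratio in B6_DRA and KO_DRA for the 29 members and 2 ratios, 62 groups in all, of which chance flags about 1 in 20; 7 stood out. The library labelled KO_DRA 8 was far above the rest of its group for Il1a, at a scaled count of 87.3 (next highest 29.0), and for Il1rn, at 254 (next highest 102). B6_DRA 5 was far below its group for Il1a, at 20.2 (next lowest 47.1), for Il6, at 6.39 (next lowest 15.4), and for the log2 ratio of Il1r2 over Il1r1, at -5.41 (next lowest -3.83). In B6_DRA 5, Il6 and Il1r2 were at 6 and 7 raw counts, below that library's background of 7.14. The size of the Il6 gap and of the ratio gap is therefore not measured. Chil4 in these libraries was 111850 counts in the library labelled KO_DRA 8, the highest of KO_DRA, and 13020 in B6_DRA 5, the lowest of B6_DRA. Il15ra was low in KO_DRA 9, at 34.2 (next lowest 45.9). Il27 was high in KO_DRA 12, at 2.41 (next highest 1.14), where both values lie below background and have no order.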

How the results depend on the processing

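The count of 8 members called between B6_DRA and B6_PBS, against 41.8% of all genes, ran from 5 to 9 over 8 other settings. On the scaled values limma called 5, against 34.6% of all genes, and housekeeping scaling 6, against 35.3%. The remaining settings called 7 to 9, against 37.7% to 45.5%. Leaving out 1 B6_DRA or KO_DRA library gave 3 to 11. It was 11 without the library labelled KO_DRA 8, against 50.3% of all genes, and 4 without B6_DRA 6, against 23.8%. It was 3 without B6_DRA 3 or B6_DRA 7, against 19.2% and 20.5%. The calls were lost without B6_PBS 1 or B6_PBS 2, which leaves 1 library assumed to vary like the other groups. No called member turned its direction in any setting; Il10ra, not called, turned to -0.23 with library size alone and passed with housekeeping scaling and with limma. Il1rn, not called, passed with DESeq2 (adjusted p = 0.0128) and on the 2 groups alone, with an adjusted p of at most 0.0625 over the 8 settings. Between KO_DRA and B6_DRA all 8 settings called 0 members, and leaving out 1 library gave 0 to 4. The 4 came only without the library labelled KO_DRA 8, against 18.1% of all genes. Between KO_DRA and B6_PBS DESeq2 called 2, against 8.42% of all genes, and the other settings 0. Leaving out 1 B6_DRA or KO_DRA library gave 0 to 4. It was 1 without B6_DRA 5, against 2.42% of all genes, and 4 without KO_DRA 10, against 11.9%. The causes of these shifts were not tested. Over all genes, the 278 calls for B6_DRA against B6_PBS ran from 0 to 345 with 1 library left out. The 0 calls for KO_DRA against B6_DRA became 120 without the library labelled KO_DRA 8. The 20 calls for KO_DRA against B6_PBS became 56 with DESeq2, 4 with library size alone and 0 on the 2 groups alone, and ran from 0 to 79 with 1 library left out.

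The 6 ratios kept direction and stayed short of the threshold with a pseudocount of 5, with background subtracted and without any 1 library. Il1rn over Il1b ran from 1.17 to 1.85 for B6_DRA against B6_PBS, from -1.001 to -0.33 for KO_DRA against B6_DRA and from 0.63 to 1.02 for KO_DRA against B6_PBS when 1 library was left out. Il1r2 over Il1r1 ran from 1.11 to 1.72, from -0.64 to -0.12 and from 0.84 to 1.32. The 16 members above background in all libraries became 15 against the highest negative probe, 14 against a threshold over all libraries and 16 on the scaled values. No paired analysis was possible because no replicate number is shared between groups. Depth limits Il6, Il12a, Il1r2 and Il4i1, whose counts fell below background in some libraries. It also limits Il27ra, which stayed above background in all 12 libraries but came near it in some.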

Other observations

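The 29 members together took 1.004% and 0.9997% of the counts in the B6_PBS libraries, 0.449% to 0.809% in B6_DRA and 0.416% to 0.908% in KO_DRA, where the library labelled KO_DRA 8 was lowest and B6_DRA 5 was the highest of its group. A share of the total falls when other genes rise, so these values are not a measure of interleukin expression.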
